A study of Mus musculus with 6 samples.

Results

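Germ cells keep many messenger RNAs silent or stable through RNA-binding proteins, and the genes described here encode 8 of these proteins: Dazl and Boll of the DAZ family, Nanos1, Nanos2 and Nanos3, Dnd1, Pum2 and Cpeb1. They were taken by gene symbol, and all 8 were found among the 19938 genes measured by a probe set with exactly 1 symbol on mouse Affymetrix arrays. Each had a single such probe set, so the rule for genes with several, to keep the brightest, made no choice among them. The genes share a role, and the group was chosen by that role together with the log2 difference of Dazl between vitamin C and untreated arrays. The values of Dazl are therefore a description with no test.

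The arrays compared embryonic stem (ES) cells of the Oct4-GiP line, in which a fluorescent and drug-resistance reporter reports Oct4 activity, grown with vitamin C or without it. Vitamin C was given as L-ascorbic acid 2-phosphate at 200 μg/ml for 72 hours, and there were 3 untreated and 3 vitamin C arrays, described as biological triplicates. Both groups grew on gelatin in N2B27 medium with LIF (1000 U/ml), the MEK inhibitor PD0325901 (1 μM) and the GSK3β inhibitor CHIR99021 (3 μM). All 6 arrays are of this single line, and no germ cells were measured. The series is about vitamin C and Tet-dependent DNA demethylation, and DNA methylation itself was not analysed here.

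Proteins of the DAZ family bind messenger RNAs and recruit poly(A)-binding protein, which favours translation. Dazl is needed for germ cell development in both sexes. Nanos proteins carry a zinc finger and bring the CCR4-NOT deadenylase to their targets, and they act with partners such as Dnd1 and Pumilio proteins. Cpeb1 binds an element in messenger RNAs that directs cytoplasmic polyadenylation, best known from maturing oocytes. Dazl is also one of the germline genes whose promoter is methylated in somatic cells.

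The promoters of the group differ widely in CpG dinucleotides, the sites of DNA methylation. The RefSeq promoter table (build GRCm38.p6) held 10 start sites for 7 of the 8 genes, and Dnd1 was not matched. The 4 windows below are shown because they include the gene that rose most, the only member whose fall passed the test and a window with no CpG. Each is the 250 bases before a start site, 5′ to 3′ on the strand of the gene, with every CpG in capitals. Boll has 2 listed starts, of which the first is shown. Dazl lies at chr17:50293621-50293870 on the minus strand, Boll at chr1:55363754-55364003 on the minus strand, Nanos1 at chr19:60755737-60755986 on the plus strand and Nanos2 at chr7:18987274-18987523 on the plus strand.
Dazl: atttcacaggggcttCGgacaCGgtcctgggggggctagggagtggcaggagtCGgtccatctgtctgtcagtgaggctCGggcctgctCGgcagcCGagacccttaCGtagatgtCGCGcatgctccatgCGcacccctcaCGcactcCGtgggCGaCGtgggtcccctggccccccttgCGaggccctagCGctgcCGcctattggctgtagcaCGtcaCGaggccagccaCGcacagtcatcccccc
Boll: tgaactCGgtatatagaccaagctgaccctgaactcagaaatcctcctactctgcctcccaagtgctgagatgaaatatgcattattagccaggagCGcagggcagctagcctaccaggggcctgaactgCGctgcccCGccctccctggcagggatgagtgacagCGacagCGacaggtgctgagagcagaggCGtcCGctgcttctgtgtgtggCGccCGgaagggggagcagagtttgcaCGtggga
Nanos1: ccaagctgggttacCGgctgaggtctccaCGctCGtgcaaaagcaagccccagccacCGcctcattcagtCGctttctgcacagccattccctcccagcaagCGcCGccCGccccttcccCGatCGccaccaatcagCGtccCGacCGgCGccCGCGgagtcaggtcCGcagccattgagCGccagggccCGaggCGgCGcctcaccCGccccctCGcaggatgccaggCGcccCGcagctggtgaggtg
Nanos2: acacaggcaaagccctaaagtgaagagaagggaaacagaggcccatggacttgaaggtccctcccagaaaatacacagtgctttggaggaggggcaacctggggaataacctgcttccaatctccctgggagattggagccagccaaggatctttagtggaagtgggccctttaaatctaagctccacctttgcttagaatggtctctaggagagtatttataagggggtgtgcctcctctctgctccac

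The Dazl window held 20 CpG dinucleotides, an observed to expected ratio of 0.71, and 17.9% of the 32851 promoters in the table held as many or more. The Nanos1 window held 25 with a ratio of 0.85, and the Cpeb1 window also held 25. At Boll the first start had 11 and the second 33. The 3 Pum2 starts had 30 to 36. Nanos2 had 0 and Nanos3 had 3, against a median of 6 over all promoters. Dazl, with the large rise, and Nanos1, whose fall passed the test, thus both had CpG-rich windows. So did Cpeb1, Pum2 and the second start of Boll, and the differences of these 3 genes did not pass the test. Nanos1 itself did not pass in 5 of the 6 fits that left out 1 array. Nanos3 and Cpeb1, with 3 and 25 CpG, also had every vitamin C value below every untreated one. The E-box letters CACGTG, which read the same on both strands, occurred in 1 of the 10 windows, the first start of Boll, and in 6.02% of all promoters. The letters GCGGGA or TCCCGC, the 2 strands of an E2F-type motif, occurred in 2 of the 10, both of Pum2, and in 16.9% of all promoters. No window held both, so no matches overlapped. A match is a run of letters in this window and says nothing of binding.

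**Figure D1:**
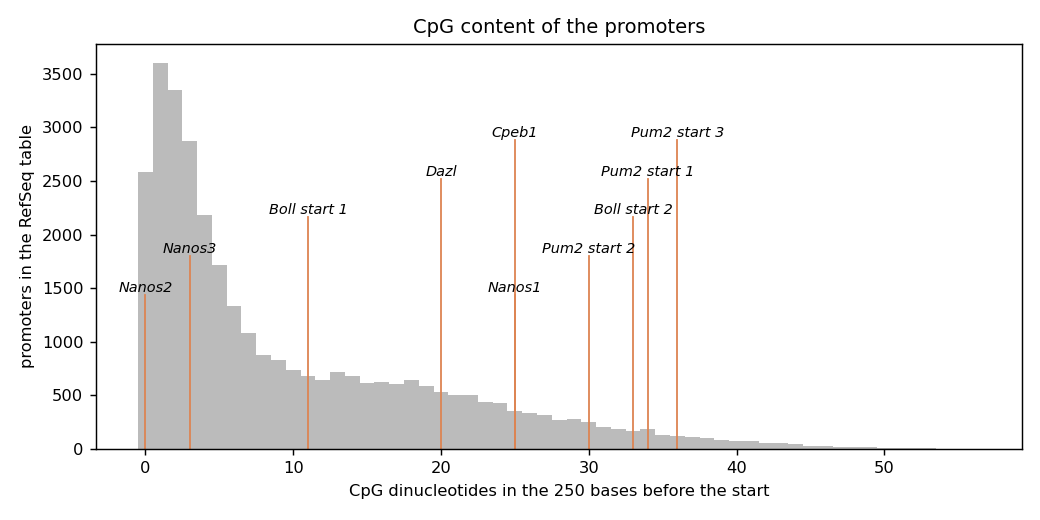
CpG dinucleotides in the 250 bases before the start site (horizontal axis) for all 32851 promoters of the RefSeq table (grey bars, number of promoters), with orange lines at the 10 start sites of the 7 matched genes. Line heights carry no value. Dazl stands at 20, Nanos1 and Cpeb1 at 25, and Nanos2 at 0.

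The value of a gene is a log2 signal, which can be compared between arrays for 1 probe set but not between probe sets. Dazl was the only member with a large difference. Its untreated arrays read 7.89, 8.11 and 8.06, and its vitamin C arrays 10.19, 10.23 and 10.27. All vitamin C values lay above all untreated ones, and the gap of 2.08 between the groups far exceeded the range within the untreated arrays (0.21) or the vitamin C arrays (0.08). The means were 8.02 ± 0.11 (SD, n = 3) and 10.23 ± 0.040 (SD, n = 3), a log2 difference of 2.21 ± 0.08 (SE) or 4.62-fold. Leaving out any 1 array gave 2.14 to 2.25. Counting Dazl itself, 16 of the 19938 genes rose by at least as much. In these bulk samples a change in the number of cells that express a gene and a change in RNA per cell cannot be told apart.

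Boll, the ancestral member of the DAZ family, which acts in male meiosis and later germ cell stages, was dim in both groups. The untreated arrays read 4.21, 4.62 and 4.10 and the vitamin C arrays 4.69, 4.76 and 4.43. The groups overlapped, since untreated replicate 2 lay above vitamin C replicate 3. The difference of 0.32 ± 0.15 (SE) did not pass (limma adjusted p = 0.201), and its 95% interval ran from -0.02 to 0.66, so a rise of up to 1.59-fold lies within it. These values lie close above the lower quartile of all probe sets of the arrays (3.99 to 4.05), where differences on arrays are compressed. Of the genes tested, 22.8% had a lower mean than Boll. Within each array, Dazl gained 1.89 ± 0.18 (SE) more than Boll between the groups. That contrast contains the rise of Dazl and is a description.

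**Figure D2:**
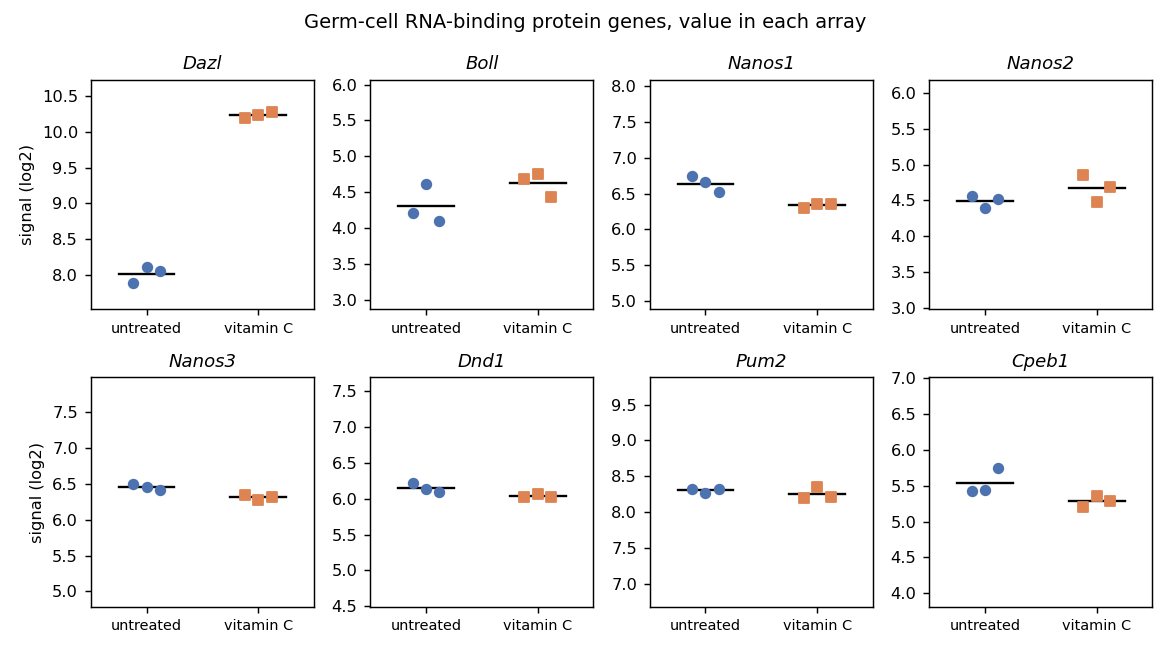
Log2 signal (vertical axis) of the 8 genes in the 3 untreated arrays (blue circles) and the 3 vitamin C arrays (orange squares), with the group mean as a line. Every panel spans 3.2 log2 units around the mean of its gene. The groups of Dazl lie 2.08 apart at their closest, and those of the other 7 genes lie close together or overlap.

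The 3 Nanos genes differed by small amounts and not all one way. Nanos1, which mice can lose and stay fertile, read 6.74, 6.66 and 6.52 in the untreated arrays. In the vitamin C arrays it read 6.30, 6.35 and 6.36, each below every untreated value. It fell by 0.31 on the log2 scale (SE 0.07), a 1.24-fold difference (limma adjusted p = 0.0359). Nanos1 was the 1 called gene among the 7 members other than Dazl, while 13.2% of all 19938 genes were called, 7.40% lower and 5.75% higher. A count of 1 in 7 is near that background and is no result about the group. The call of Nanos1 was lost without untreated replicate 1 (adjusted p = 0.0988) or 2 (0.0984) and without vitamin C replicate 1 (0.106), 2 or 3 (0.0817 each). The 6 fits without 1 array gave differences from -0.36 to -0.25.

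Nanos2, which holds male germ cells back from meiosis and maintains spermatogonial stem cells, was dim. It read 4.56, 4.39 and 4.52 untreated and 4.86, 4.48 and 4.69 with vitamin C. Vitamin C replicate 2 lay within the untreated range, and the difference of 0.19 ± 0.11 (SE) did not pass (limma adjusted p = 0.287). Nanos3, which protects migrating primordial germ cells from apoptosis, read 6.50, 6.45 and 6.41 untreated and 6.35, 6.28 and 6.32 with vitamin C. The groups did not overlap, but the gap was 0.06 and the difference of -0.14 ± 0.06 (SE) did not pass (limma adjusted p = 0.174). Its 95% interval ran from -0.28 to 0.00065 and so holds no change beyond 1.22-fold.

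The Nanos genes were also compared with each other within each array. The difference of Nanos1 between the groups lay 0.49 ± 0.15 (SE) below that of Nanos2 and 0.16 ± 0.06 (SE) below that of Nanos3, and the difference of Nanos2 lay 0.33 ± 0.10 (SE) above that of Nanos3. In all 3 pairs the groups did not overlap. Over all single genes 35.0% showed no overlap, and the share over pairs of genes was not computed. The 3 pairs are built from the same 3 genes and so are not independent. The two-sided exact permutation p was 0.10 for each, which is the smallest that 3 against 3 arrays allow, and 0.10 after Benjamini-Hochberg adjustment over the 3 pairs. The test therefore could not reach 0.05 in this design.

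Dnd1, an RNA-binding partner of Nanos2 whose loss depletes primordial germ cells, read 6.22, 6.14 and 6.09 untreated and 6.02, 6.07 and 6.02 with vitamin C. The groups lay 0.02 apart without overlap, and the difference of -0.12 ± 0.06 (SE) did not pass (limma adjusted p = 0.277; 95% interval -0.26 to 0.03). Pum2, a Pumilio protein that represses its target messenger RNAs and is also present in many tissues outside the germline, read 8.32, 8.27 and 8.32 untreated and 8.20, 8.35 and 8.21 with vitamin C. Vitamin C replicate 2 was the highest of all 6 arrays, and the groups overlapped. The difference of -0.05 ± 0.07 (SE, limma adjusted p = 0.663) had a 95% interval from -0.21 to 0.10, which holds no change beyond 1.16-fold.

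Cpeb1 read 5.43, 5.44 and 5.75 untreated and 5.20, 5.36 and 5.28 with vitamin C. Every vitamin C value was below every untreated one, with a gap of 0.07. The difference of -0.26 ± 0.10 (SE) did not pass (limma adjusted p = 0.140), and untreated replicate 3 stood highest: with 1 array left out the difference ranged from -0.31 to -0.15. Without overlap between the groups were 5 of the 8 members, Dazl above and Nanos1, Nanos3, Dnd1 and Cpeb1 below. Over all genes 35.0% showed no overlap, 16.8% above and 18.2% below. The median difference of the 7 members other than Dazl was -0.12, and that of all genes was 0.01.

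**Figure D3:**
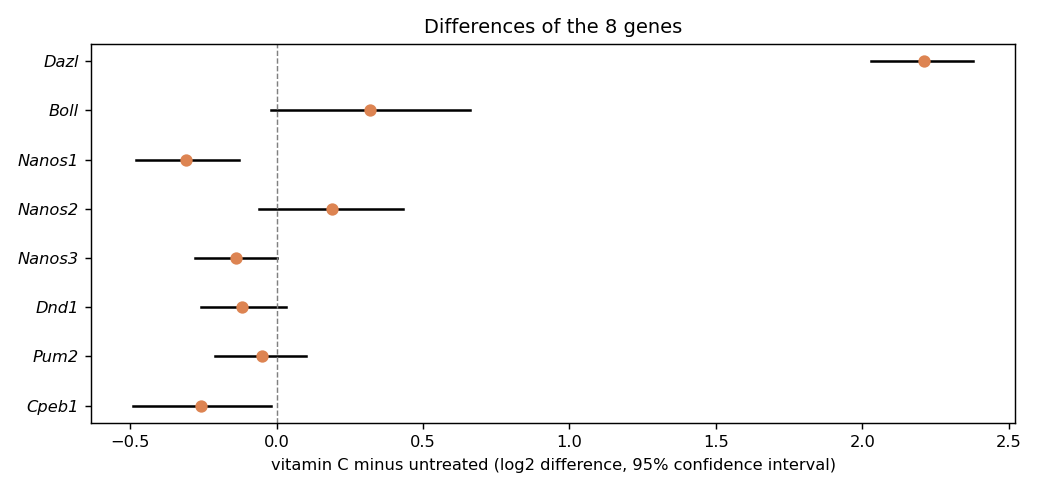
Log2 difference, vitamin C minus untreated (points), with its 95% confidence interval from limma (lines) for the 8 genes. Dazl stands at 2.21, and the other 7 lie between -0.31 and 0.32. The interval of Dazl is a description and no test, since its difference helped to choose the group.

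Genes whose values over the 6 arrays were most like those of Dazl were ranked by the root mean square distance after each gene was centred on its own mean. The 5 nearest with an assigned name were Igf2 (0.11), Tuba3b (0.17), Gtsf1 (0.23), Clec2i (0.24) and Rhox13 (0.24, all in log2 units), with 1 gene that has only a placeholder symbol passed over. Igf2, an imprinted growth factor gene, read 6.50, 6.64 and 6.37 untreated and 8.72, 8.58 and 8.75 with vitamin C, a difference of 2.18 against the 2.21 of Dazl. Tuba3b is a testis tubulin, Gtsf1 a piRNA pathway cofactor and Rhox13 a reproductive homeobox gene, and their differences were 2.23, 1.76 and 2.42. Clec2i, a C-type lectin gene, differed by 1.76. This likeness is a description over 6 arrays in 2 groups and rests mostly on the size of the difference between them.

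**Figure D4:**
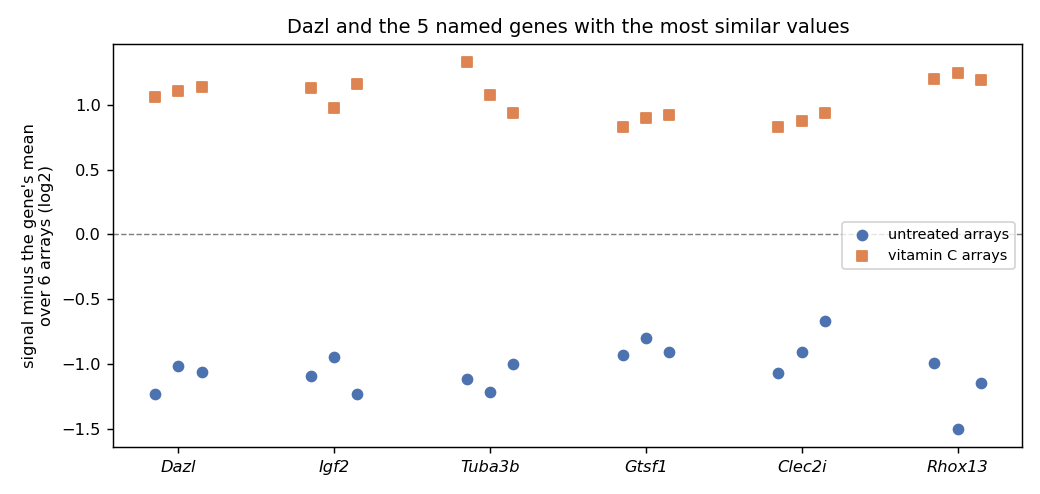
Log2 signal minus the mean of the gene over all 6 arrays (vertical axis) for Dazl and the 5 named genes nearest to it, in untreated (blue circles) and vitamin C arrays (orange squares). Untreated arrays of Dazl lie between -1.23 and -1.02 and vitamin C arrays between 1.06 and 1.14.

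Along chromosome 17 the 2 measured genes on either side of Dazl showed no difference of its size. Rftn1, AY702103 and Plcl2 differed by -0.17, 0.02 and -0.03 and did not pass, and Tbc1d5 rose by 0.30 (limma adjusted p = 0.0396). The call of Tbc1d5 was lost without any 1 array (adjusted p = 0.0594 to 0.109), and with its 2 probe sets averaged the difference was 0.11. The 4 genes were picked by gene order in RefSeq after values were known. Over the 8 members, 5 of 32 such neighbours were called (15.6%), against 13.2% of all genes. The others were Dennd10 near Nanos1 (-0.41, adjusted p = 0.0127), Ccdc61 near Nanos2 (-0.46, 0.0166), and Wdr55 (-0.37, 0.0435) and Hars (-0.24, 0.0468) beside Dnd1, where all 4 neighbours had lower means. The call of Ccdc61 was lost without untreated replicate 3 (0.0503), that of Wdr55 without any array but vitamin C replicate 2 and that of Hars without any 1 array. None of the 4 neighbours of Boll, Nanos3, Pum2 or Cpeb1 was called.

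Genes that work with these proteins were read from 6 lists, which hold 122 measured genes in all, 27 of them called (14 higher, 13 lower). Leaving out any 1 array lowered that to 11 to 16: 15, 15 and 11 without untreated replicate 1, 2 or 3, and 15, 16 and 16 without vitamin C replicate 1, 2 or 3. The share of called genes per list, set beside 13.2% of all genes, ran from 5.26% for deadenylation to 42.3% for primordial germ cell specification. With 1 array left out, where fewer arrays are fitted, calls over all genes fell from 2623 to between 1483 and 1721. In the same fits calls went from 2 to between 0 and 1 for the DAZ partners and from 4 to 1 to 3 for the Dazl targets. Calls for deadenylation went from 1 to 0 or 1 and those for the CPEB pathway from 2 to 1 or 2. Calls went from 8 to 4 or 5 for the other germ-cell proteins and from 11 to 5 to 8 for primordial germ cell specification. The median difference of all genes was 0.01. Of 17 measured genes of DAZ partners, poly(A)-binding proteins, their regulators and initiation factors, 1 rose, 1 fell and 15 did not pass (median 0.07). Eif4g2, an initiation factor relative, rose by 0.29 (limma adjusted p = 0.0190), and Paip2b, an inhibitor of poly(A)-binding protein, fell by 0.32 (0.0201). The call of Eif4g2 was lost without any 1 array (adjusted p = 0.0508 to 0.0667), and that of Paip2b was lost without untreated replicate 2 or 3 or any 1 vitamin C array (0.0345 to 0.0670 over the 6 fits). Dazap1, a DAZ-associated protein, differed by 0.07 ± 0.06 (SE).

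Reported messenger RNA targets of Dazl numbered 10 measured genes, of which 3 rose, 1 fell and 6 did not pass (median 0.13). Sycp3 of the synaptonemal complex read 9.12 in every untreated array and 9.64, 9.56 and 9.47 with vitamin C, a rise of 0.43 (limma adjusted p = 0.00702) that held with any 1 array left out. Tex19.1, a germ-cell and pluripotency gene that restrains retrotransposons, read 9.09, 9.35 and 9.12 untreated and 9.60, 9.63 and 9.64 with vitamin C, a rise of 0.44 (0.0145; 0.0514 without untreated replicate 3 and 0.0617 without moderation). The polycomb subunit Suz12 rose by 0.23 (0.0392; 0.0748 to 0.113 without any 1 array). The caspase gene Casp9 fell by 0.31 (0.0277), a call kept only without vitamin C replicate 3 (0.0408 to 0.0871 over the 6 fits). The germ-cell helicase Ddx4 differed by 0.13 ± 0.10 (SE, adjusted p = 0.438). Dazl is known to act on the translation of such targets, and protein was not measured.

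Of 19 measured genes of the deadenylation machinery that Nanos and Pumilio proteins recruit, 1 fell, none rose and 18 did not pass (median of the list 0.00 to 2 decimals). The deadenylase Cnot8 fell by 0.28 (limma adjusted p = 0.0237) but differed by -0.13 (adjusted p = 0.191) with its 2 probe sets averaged, and the call was kept only without vitamin C replicate 1 among the 6 fits with 1 array left out (0.0487 to 0.0741). The scaffold Cnot1 differed by -0.01 ± 0.07 (SE). Of 21 measured genes of the CPEB pathway, 2 fell, none rose and 19 did not pass (median -0.03). Patl2, an RNA-binding protein of oocytes, read 6.54, 6.68 and 6.69 untreated and 5.65, 6.02 and 6.07 with vitamin C, a fall of 0.72 (limma adjusted p = 0.00879; 0.0121 to 0.0337 with 1 array left out, 0.0662 without moderation). Ybx2, a germ-cell Y-box protein that stores messenger RNAs, fell by 0.39 (0.0238). That call needed untreated replicates 1 and 3 and vitamin C replicates 1 and 3 (0.0283 to 0.0806 over the 6 fits). Of the relatives of Cpeb1, Cpeb2 differed by 0.27, Cpeb3 by 0.02 and Cpeb4 by -0.06, and none passed.

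Other RNA-binding proteins with germ-cell roles, listed with partners such as Meioc, went both ways. Of the 33 measured, 4 were higher, 4 were lower and the other 25 did not pass (median 0.08). Meioc, a meiosis regulator that works with the RNA helicase Ythdc2, read 6.07, 6.03 and 5.90 untreated and 7.00, 7.13 and 6.85 with vitamin C, a rise of 0.99 ± 0.09 (SE, limma adjusted p = 0.000937). Ythdc2 itself differed by 0.29 ± 0.11 (SE, adjusted p = 0.142). Rbm44, a germ-cell protein of intercellular bridges, rose by 0.72 (0.00702) and Zfp36l2, an mRNA decay factor, by 0.52 (0.00218). The Musashi gene Msi1 read 8.47, 8.56 and 8.58 untreated and 7.81, 7.85 and 7.94 with vitamin C, a fall of 0.67 (0.00142). The calls of Meioc, Rbm44, Zfp36l2 and Msi1 held with any 1 array left out, but without limma's moderation of the spread that of Rbm44 was lost (adjusted p = 0.0571). The other 4, named after their values were seen, were Celf1, which rose by 0.25, and Lin28a (-0.52), Igf2bp3 (-0.24) and Fxr1 (-0.23), which fell. Those of Celf1, Igf2bp3 and Fxr1 were lost without any 1 array (adjusted p = 0.0621 to 0.0933, 0.0688 to 0.121 and 0.0724 to 0.115), and that of Lin28a was lost without untreated replicate 3 or vitamin C replicate 3 (0.00936 to 0.0529 over the 6 fits).

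Genes of primordial germ cell specification, many of which ES cells also express, moved in both directions too: 6 of 26 rose, 5 fell and 15 did not pass (median 0.08). The receptor tyrosine kinase gene Kit rose by 0.44 (limma adjusted p = 0.00645) and the BMP signal transducer Smad1 by 0.41 (0.00771), while Ifitm1, a surface protein gene of early germ cells, fell by 0.56 (0.00233) and Tcl1, an AKT coactivator, by 0.73 (0.00828). These 4 calls held with any 1 array left out, but that of Tcl1 was lost without moderation (0.0642). The other called genes of the list, named after their values were seen, were Rhox9 (0.63), Nanog (0.29), Dppa3 (0.25) and Ifitm3 (0.22), which rose, and Lin28a (-0.52), Alpl (-0.36) and Akap12 (-0.31), which fell. Dppa3 and Ifitm3 lost the call without any 1 array (adjusted p = 0.0745 to 0.102 and 0.0899 to 0.117), Akap12 in 5 of 6 such fits (0.0407 to 0.0680; kept without vitamin C replicate 3) and Alpl without untreated replicate 2 or 3 (0.0353 to 0.0547). Rhox9 held in all 6 but not without moderation (0.0689). The 11 calls of the list thus became 7, 7 and 5 without untreated replicate 1, 2 or 3, and 7, 8 and 7 without vitamin C replicate 1, 2 or 3. Prdm14, a regulator of germ cell specification, differed by 0.22 (adjusted p = 0.0588), and Prdm1 by -0.20 ± 0.11 (SE).

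**Figure D5:**
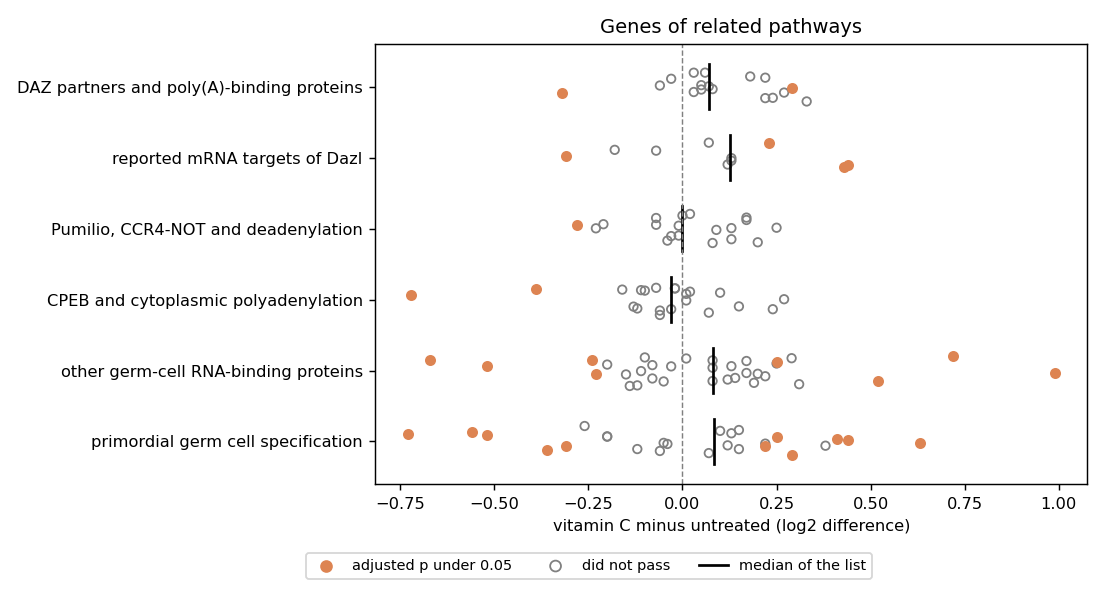
Log2 difference, vitamin C minus untreated (horizontal axis), of each measured gene in the 6 lists. Filled orange points passed at an adjusted p under 0.05, open circles did not, and the black line is the median of the list, which lies between -0.03 and 0.13 in all 6. Vertical scatter within a row carries no value.

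Markers of the labelled cells and of other cell types were read in the same way. Levels of different probe sets cannot be set against each other and detection above background was not tested, so these levels compare the groups and do not show which cell types were present. ES cell markers were slightly higher with vitamin C (mean of the 15 genes 10.23 to 10.24 in untreated and 10.27 to 10.32 in vitamin C arrays). Of the 15, 4 were higher (Tbx3 by 0.35, Nanog by 0.29, Zfp42 by 0.30 and Utf1 by 0.29), none was lower and 11 did not pass. The share called was 26.7%, against 13.2% of all genes. Of markers of the somatic cells of the gonad (mean of 11 genes 5.65 to 5.70 and 5.72 to 5.74), Fst alone was called, higher by 0.33 (limma adjusted p = 0.0341; lost without any 1 untreated array or vitamin C replicate 1 or 2). Of 21 fibroblast markers 8 were higher, 1 lower (Pdgfrb, -0.32) and 12 did not pass, with a median difference of 0.20. Those that did not pass included Vim (0.10), Thy1 (0.07) and Col6a1 (-0.05). Over all genes 5.75% were called higher and 7.40% lower, and the median difference was 0.01. The mean level of the fibroblast markers was 5.61 to 5.70 in untreated and 6.01 to 6.07 in vitamin C arrays. Among the fibroblast markers Acta2 (smooth muscle actin) rose by 1.83, Lox by 1.49, Dcn by 1.06 and Tagln by 1.03. For 2 of the 21 the mean over the 6 arrays was below the lower quartile of every array (3.99 to 4.05). The untreated values of Lox (3.85, 3.67 and 3.33) were also below it. Of 17 primitive endoderm markers 4 rose and none fell (mean level 5.76 to 5.84 and 5.96 to 5.98), and of 14 trophoblast markers 1 rose and 4 fell (5.89 to 5.97 and 5.73 to 5.80). Among the former Dab2 rose by 0.89, Sparc by 0.43, Gata6 by 0.39 and Col4a1 by 0.28, and among the latter Krt8 (-0.58), Gata2 (-0.47), Krt7 (-0.36) and Krt18 (-0.35) fell. The trophoblast marker that rose was Gata3 (0.35), and the other 9 did not pass. Dab2 has 2 probe sets. Its difference was 0.44 to 0.90 over the alternatives other than leaving out arrays, with the call kept. The calls of Nanog, Zfp42, Utf1, Col4a1, Gata2, Krt7 and Krt18 were each lost in 4 or 5 of the 6 fits without 1 array (limma adjusted p = 0.0296 to 0.127). Those of the other called markers named here, except Fst, Pdgfrb and Gata3, held in all 6, and Pdgfrb and Gata3 were not refitted singly. The part of these marker genes in the values of the 8 genes was not tested. Arrays of 1 group correlated at 0.995 to 0.996 and arrays of different groups at 0.989 to 0.990 across genes, which are not independent replicates, and no array stood apart.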

How the data were processed

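RNA of 6 cultures was measured on one-colour arrays. The authors' deposited table holds log2 values, a scale read from their range. The submitters' processing notes name RMA, with version and settings not given in the sources used here. RMA in general equalises array distributions, which hides any shift common to every gene. Array medians lay between 5.52 and 5.60. Of 35557 probe sets, 21789 had 1 gene symbol in the platform annotation, 1621 several and 12147 are unnamed here. RefSeq gene IDs matched 21698. The brightest probe set on average stood for each of 19938 genes.

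Groups follow the sample titles. The vitamin C and untreated arrays were fitted in limma 3.58.1 (R 4.3.3; lmFit, eBayes, no covariate), with Benjamini-Hochberg adjustment over all genes and a call at an adjusted p under 0.05. Differences are vitamin C minus untreated with the moderated SE. P-values measure the spread between these arrays, whose number limits the precision. Detection above background was not tested. Simulated data of 19938 genes had 200 changed genes in each of 5 runs. The fit called 16.4% of genes changed 1.25-fold, 63.2% of those changed 1.5-fold and 93.2% of those changed 2-fold, and 3.81% of its calls were false. In the data 13.2% of genes were called, a larger share than was changed in the simulation, so these rates may not carry over. The members and lists were chosen with earlier results of these data known. All members were named, as were the 4 called genes of lowest p in every list and the 5 nearest to Dazl. Other genes were named after their values were seen. Promoter sequences are from RefSeq (GRCm38.p6). Alternatives changed the spread model, normalization, filter, probe sets, weights, threshold, replicate block and arrays included.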

Additional observations from a re-analysis of the deposited data

How the results depend on the processing

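The rise of Dazl, which helped to choose the group and is a description, lay between 2.14 and 2.25 under all 16 alternatives. Some of these, such as the spread model and the threshold, cannot change the size of a difference. None of the 51 genes refitted singly reversed a call under an alternative that tested it. The median difference of the 8 members (-0.08) stayed between -0.13 and -0.06. The 1 call among the other 7 members, Nanos1, became 0 without moderation, with all probe sets tested, at an adjusted p under 0.01 and with the replicate block (adjusted p of Nanos1 0.0817, 0.0764, 0.0359 and 0.0825), and the count was 0 to 1 with 1 array left out. The 2623 calls over all genes became 4151 with a trended and robust spread model, 1545 without moderation, 901 at an adjusted p under 0.01, and 1483 to 1721 with 1 array left out, where fewer arrays are fitted. The 27 calls in the 6 lists became 44 with the trended and robust model, 10 at an adjusted p under 0.01 and 11 to 16 with 1 array left out. With the replicate number as a block the counts were 1723 over all genes and 15 in the lists. Deviations of arrays with the same replicate number correlated at -0.024 to 0.052, so the numbers were not treated as pairs, and the cause of the lower counts was not tested. Of 44 called genes in these and the marker lists and among the members, Dazl aside, that were refitted singly, 20 were called with every 1 array left out. With dim genes left out, Boll and Nanos2 were not tested. Depth does not apply to arrays; for dim Boll and Nanos2, signal over background limits what could be seen.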
